A study of Mus musculus with 12 samples.

Results

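Nucleotide synthesis and one-carbon metabolism are represented here by 33 genes, picked by name for their enzymatic roles, with earlier results of these data known. They comprise 8 genes of deoxynucleotide (dNTP) supply, 5 of pyrimidine synthesis, 11 of purine synthesis, 6 of folate one-carbon metabolism and 3 of serine synthesis. Expression was measured on arrays in medulloblastomas (MBs) of 8 mice, granule neural progenitors (GNPs) of 2 mice and whole cerebellum of 2 mice. A probe set of its own was found for 32 of the 33 genes, out of 18193 genes in all, and Impdh2 was not analysed here. The level of a gene is the mean log2 value of its probe sets, so that a difference of 1 means a doubling.

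The MBs came from XRCC4/p53-deficient mice of genotype Nestin-Cre p53-/- Xrcc4 c/-, except that tumor MB_1206 was Xrcc4 c/c. XRCC4 is needed for canonical non-homologous end-joining, and Nestin-Cre removes its gene in neural progenitors and therefore in most cells of the brain that descend from them. The study describes the normal samples as matched for age and genotype, without giving the Xrcc4 alleles of each, and ages are not in the labels. Each array carries the number of a different mouse, given here after MB for the tumors, CGNP for GNPs and WC for whole cerebellum. The labels call the MBs tumor tissue, while the methods list 6 of the 8 among tumors whose cells were cultured. Xrcc4 itself ranged between 2.44 and 3.57 in the MBs, against 3.57 and 4.19 in GNPs and 4.25 and 4.34 in cerebellum, and where its probe set lies relative to the deleted part was not examined.

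DNA replication needs balanced dNTPs. Ribonucleotide reductase makes them out of ribonucleotides, and thymidylate synthase adds the methyl group of thymidine with a one-carbon unit carried by folate. Serine is the main donor of one-carbon units, which also enter the purine ring at a pair of steps, so that the branches are coupled. In the young cerebellum, GNPs are the cells that divide most, under the control of Sonic hedgehog, and mature granule neurons no longer replicate their DNA.

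The samples differed in composition and division. All 9 measured proliferation markers passed as higher in MBs against both normal tissues, and their mean level was 9.53 to 10.06 in MBs, 5.98 to 6.27 in GNPs and 3.66 to 3.88 in cerebellum. Between GNPs and cerebellum, 6 of these 9 passed as higher, among them Mki67 with a mean of 9.02 in GNPs and 2.29 in cerebellum, and 12.31 in MBs. The 8 measured progenitor markers averaged 10.22 to 10.66 in MBs, 7.13 to 7.25 in GNPs and 5.64 to 5.69 in cerebellum, and 4 of them passed as higher and 1 as lower in GNPs than in cerebellum. Among them Gli1 averaged 9.10 in MBs, 2.30 in GNPs and 3.50 in cerebellum, and Atoh1 averaged 11.95 in MBs, 5.95 in GNPs and 2.76 in cerebellum. Markers of mature granule neurons averaged 4.83 to 7.81 in MBs, 5.54 to 5.72 in GNPs and 11.26 to 11.42 in cerebellum. Mesenchymal markers averaged 3.46 to 6.42 in MBs, 6.84 to 6.98 in GNPs and 4.56 to 4.76 in cerebellum, and microglial markers averaged 5.67 to 6.91, 3.37 to 4.22 and 5.01 to 5.04 in the same order. Purkinje cell markers averaged 3.15 to 6.75 in MBs, 4.91 to 5.07 in GNPs and 11.30 to 11.34 in cerebellum. The part of cell composition or of the dividing fraction in any result was not tested, and in bulk RNA fewer cells of a type and less RNA per cell cannot be told apart. Tumor MB_630 had the highest marker means of several other cell types among the MBs, with 6.75 for Purkinje cells (3.15 to 4.74 in the other MBs), 7.81 for mature granule neurons (4.83 to 6.38), 6.42 for mesenchymal cells (3.46 to 4.37), 4.18 for endothelial cells (2.50 to 3.52) and 5.25 for oligodendrocytes (3.19 to 4.77). Tumor MB_706 stood apart in RNA quality. Its Gapdh and beta-actin control probe sets read 2.93 log2 units higher at the 3′ end than at the 5′ end on average, whereas that gap was 0.56 to 0.82 in the remaining tumors and 0.15 to 0.52 in GNPs and cerebellum.

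In MBs, 26 of the 32 members passed as higher than in GNPs and 1 passed as lower (limma, adjusted p under 0.05 over all genes), where 18.7% of all genes passed as higher and 18.6% as lower. Against cerebellum, 27 members passed as higher and 1 as lower in MBs, where the shares over all genes were 22.2% and 21.8%. With only the 9905 genes at 5 or more in at least 2 samples fitted, 3201 passed as higher and 2795 as lower against GNPs. Of the 30 members among them, 25 passed as higher and 1 as lower. Against cerebellum the counts were 3799 and 3048 genes, and 25 and 1 members. The MBs alone can meet this filter, as they do for Tk1, so it favours genes that are high in MBs. The median log2 difference of the members was 1.40 between MBs and GNPs and 1.55 between MBs and cerebellum, and that of all genes was 0.00 in both. Between GNPs and cerebellum 5 members passed as higher and 2 as lower, against 14.9% and 13.6% of all genes. The share of members passing as higher was near that over all genes, and the median difference of the members was 0.08. The counts of 5 and 2 rose with the probe set of highest mean signal, as given at the end. With 1 sample left out at a time, the members called between GNPs and cerebellum numbered 3 (without cerebellum WC_2647) to 10 (without tumor MB_706). With every array shifted to a common median over expressed genes, 3246 genes passed as higher and 8784 as lower between MBs and GNPs, 3563 and 9857 between MBs and cerebellum, and 2668 and 6439 between GNPs and cerebellum, since genes at the lowest value of the arrays then differ by the shift itself. Both MB comparisons use the same 8 tumors. In these, 24 members passed as higher in MBs against each normal tissue, as did 13.8% of all genes. Without MB_630, 25 members passed as higher and 1 as lower in MBs than in GNPs, and 28 and 1 against cerebellum. Without MB_706 these counts were 25 and 1, and 27 and 1.

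**Figure D1:**
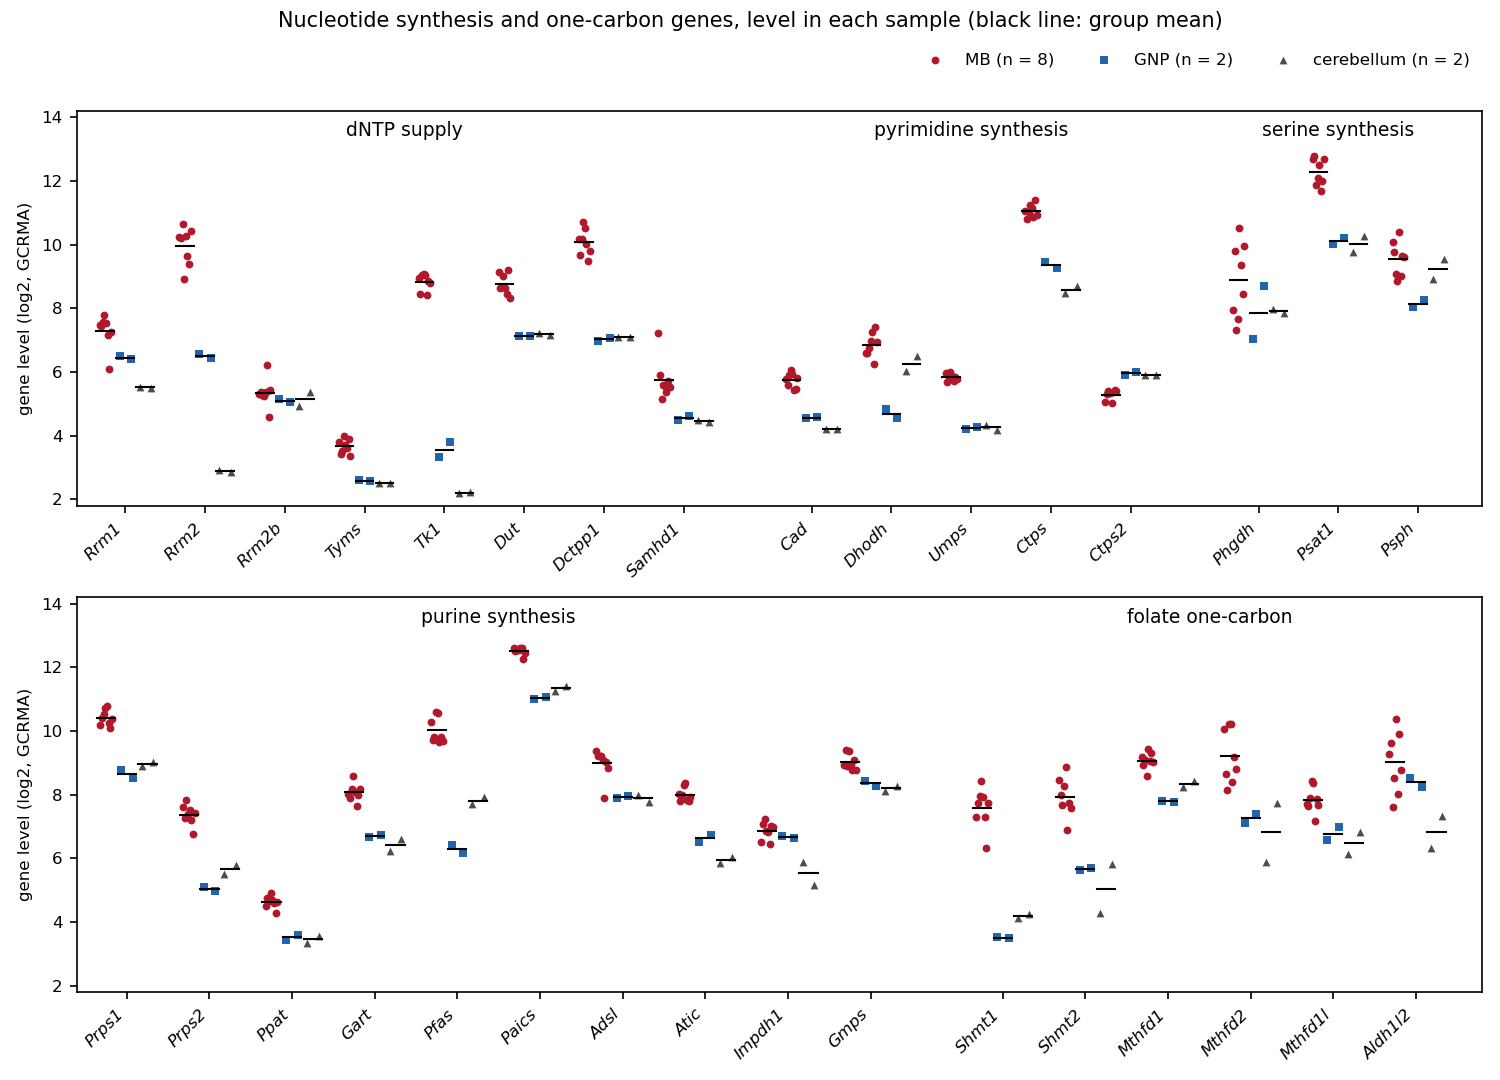
Log2 level of each of the 32 measured members in each sample, in panels by branch, with MBs as red circles (n = 8), GNPs as blue squares (n = 2), cerebellum as grey triangles (n = 2) and the group mean as a black line. All MBs lie above all normal samples for most members, the exceptions being Rrm1, Rrm2b, Dhodh, Ctps2, Adsl, Impdh1, Aldh1l2, Phgdh and Psph, and several folate and serine members are widely scattered between tumors. The share of all genes so placed was not counted, and each normal group has 2 samples.

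**Figure D2:**
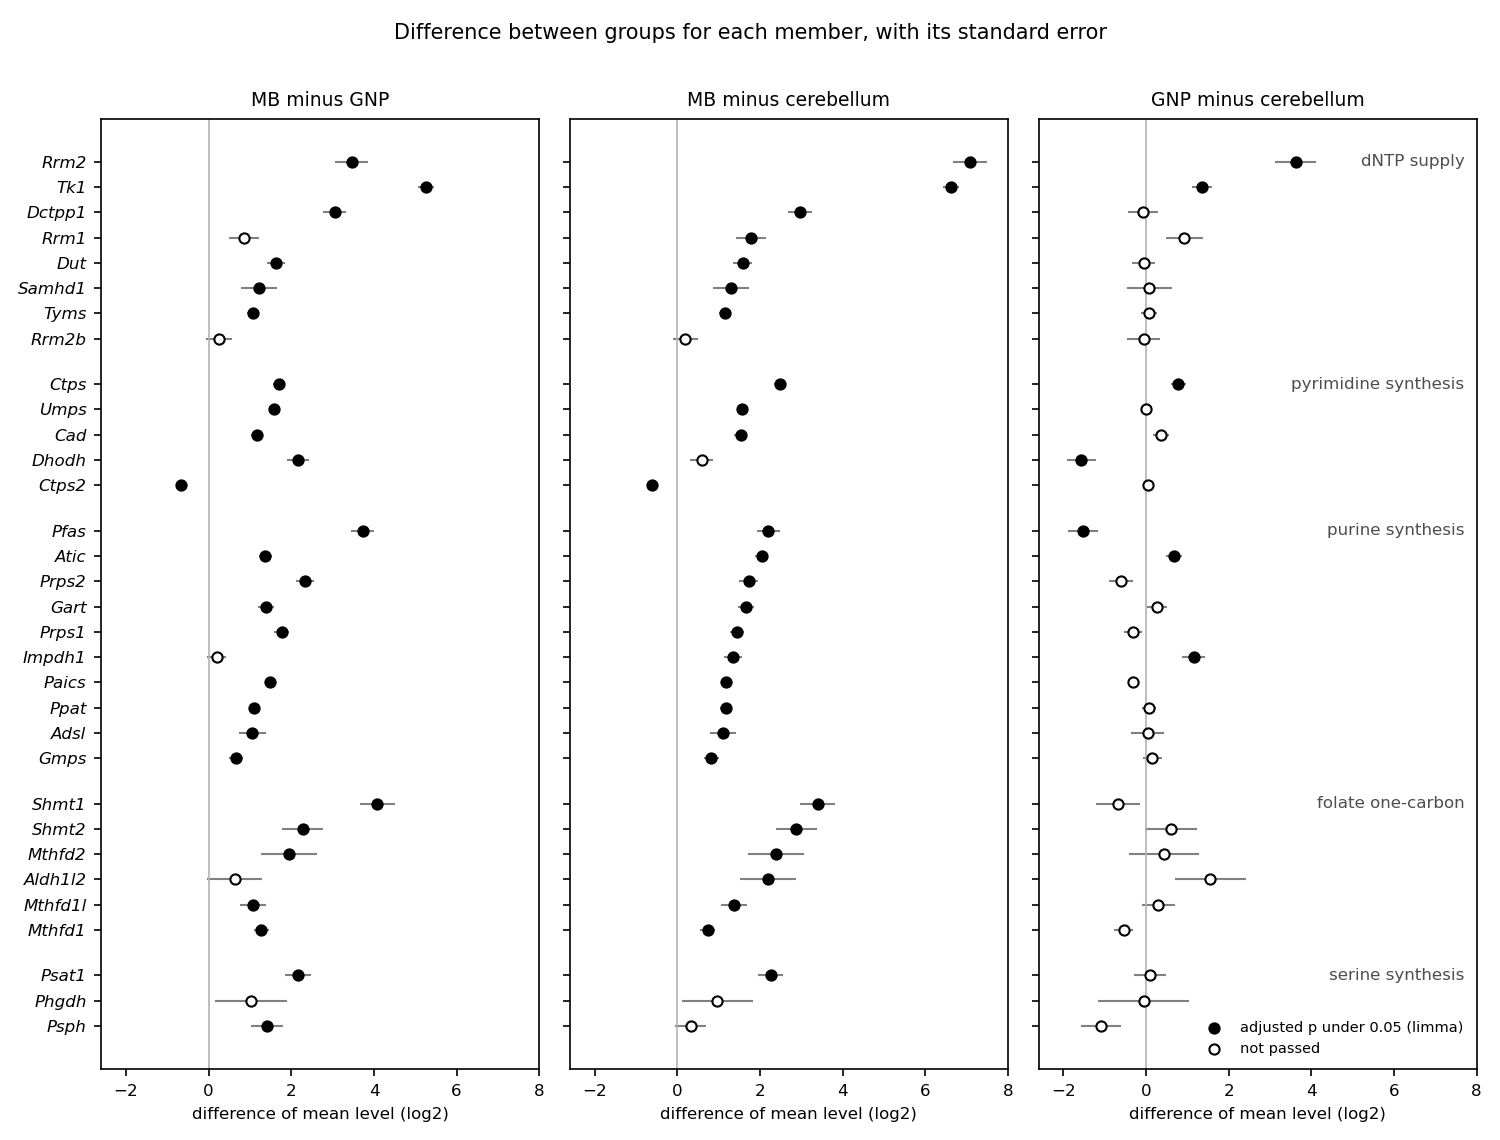
Difference of mean log2 level (x axis) of each member, with its standard error, for MB minus GNP, MB minus cerebellum and GNP minus cerebellum. Filled points passed the limma test, which gave 26 higher and 1 lower, 27 higher and 1 lower, and 5 higher and 2 lower.

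In dNTP supply, 6 of 8 members passed as higher in MBs than in GNPs and 7 of 8 as higher than in cerebellum, and none passed as lower. Rrm2, the small subunit of ribonucleotide reductase that is made for S phase, had a level of 8.94 in the lowest MB, 10.22 at the median and 10.65 in the highest. GNPs had 6.56 and 6.45, and cerebellum had 2.92 and 2.85. The 3 groups did not overlap, and the order was MB, GNP, cerebellum. The difference of Rrm2 was 3.46 between MBs and GNPs (SE 0.40, adjusted p = 8.72e-05 in limma), 7.08 between MBs and cerebellum (SE 0.40, adjusted p = 3.59e-07) and 3.62 between GNPs and cerebellum (SE 0.51, adjusted p = 0.000466). In cerebellum 1 of the 2 averaged probe sets of Rrm2 stood at the lowest value of the arrays, 2.20, so that these differences from cerebellum are understated. Its paralog Rrm2b, the small subunit that p53 can induce and that serves repair and mitochondria outside S phase, stood at 4.60, 5.34 and 6.23 in the lowest, median and highest MB, against 5.14 and 5.06 in GNPs and 4.94 and 5.37 in cerebellum. The groups of Rrm2b overlapped, with a difference of 0.25 from GNPs (SE 0.31, adjusted p = 0.67 in limma) and 0.20 from cerebellum (SE 0.31, adjusted p = 0.78). Of the MBs, MB_706 alone lay below GNPs, with 1437476_at at 3.67 there and 5.79 to 7.41 in the others. The difference from GNPs was 0.36 without MB_706 (adjusted p = 0.327) and 0.13 without MB_630, the highest (adjusted p = 0.802). The averaged probe set 1437221_at was near the lowest value throughout, which shrinks the differences of Rrm2b.

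Tk1, the thymidine kinase of the salvage route, had 8.42, 8.90 and 9.08 in the lowest, median and highest MB, 3.32 and 3.81 in GNPs and 2.20 and 2.22 in cerebellum. Every tumor lay far above every normal sample, and the tumors differed little among themselves (SD 0.26, n = 8). The difference was 5.27 from GNPs (SE 0.20, adjusted p = 4.33e-08 in limma), the furthest of all members in that comparison. Against cerebellum it was at least 6.62 (SE 0.20, adjusted p = 3.64e-09), since both cerebellum samples lay within 0.3 of the lowest value on the arrays. GNPs passed as higher than cerebellum for Tk1 as well, by at least 1.35 (SE 0.25, adjusted p = 0.0026).

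The enzymes that clear unwanted dNTPs were also higher in MBs. Dctpp1, which breaks down dCTP and its modified forms, averaged 10.07 ± 0.42 (SD, n = 8) in MBs, against 6.97 and 7.08 in GNPs and 7.10 in each cerebellum. Its difference was 3.05 from GNPs (adjusted p = 2.16e-05 in limma) and 2.97 from cerebellum (adjusted p = 1.6e-05), while GNPs and cerebellum differed by -0.08. Dut, the dUTPase that keeps uracil out of DNA, rose by 1.63 and 1.58 in these comparisons (adjusted p = 0.000238 and 0.00021). Its 2 probe sets disagreed on the size against cerebellum, with 2.98 for one and 0.18 for the other. Samhd1, a dNTP triphosphohydrolase that is also abundant in myeloid cells, had 5.16, 5.58 and 7.22 in the lowest, median and highest MB, 4.49 and 4.60 in GNPs and 4.49 and 4.43 in cerebellum. Its difference from cerebellum was 1.30 (SE 0.43, adjusted p = 0.0325), lost without tumor MB_1197 or either cerebellum sample (adjusted p between 0.052 and 0.154). Its difference from GNPs was 1.22 (SE 0.43, adjusted p = 0.0496 in limma), and that call was lost when any 1 of 10 of the samples was left out, with adjusted p between 0.0533 and 0.218. The highest value of Samhd1 was that of tumor MB_1187.

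Tyms, thymidylate synthase, had levels of 3.35, 3.66 and 3.98 in the lowest, median and highest MB, against 2.59 and 2.57 in GNPs and 2.50 and 2.51 in cerebellum. It passed as higher in MBs by 1.07 (adjusted p = 0.000319 in limma) and 1.15 (adjusted p = 0.00014), and 2 of its 4 probe sets stood at the lowest value in every sample, which shrinks both differences. The other 2 probe sets differed by 2.32 and 1.98 between MBs and GNPs.

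Rrm1, the large subunit of ribonucleotide reductase, had 6.10, 7.47 and 7.80 in the lowest, median and highest MB, against 6.49 and 6.40 in GNPs and 5.52 and 5.51 in cerebellum. It passed as higher in MBs than in cerebellum, by 1.78 (SE 0.36, adjusted p = 0.0022 in limma), but the MBs overlapped GNPs and the difference of 0.85 missed the threshold (SE 0.36, adjusted p = 0.0888). Only tumor MB_706 lay below GNPs, and without it the difference was 1.02 (adjusted p = 0.000465), although leaving out the lowest tumor raises the difference by itself. In that tumor the probe set 1448127_at read 4.67, against 8.88 to 9.47 in the other MBs, while 1415878_at read 10.46 within their range of 10.20 to 10.92. By 1415878_at alone, Rrm1 was 1.92 higher in MBs than in GNPs (adjusted p = 2.09e-05 over all probe sets).

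The promoter of Rrm2 is shown because this member spans the widest range between the groups. It is given as the RefSeq window of GRCm38.p6 at chr12:24708004-24708303 on the plus strand, 250 bases before the start of the gene and 50 after it, with the NF-Y box CCAAT, 50 bases before the start, in capitals.
Rrm2: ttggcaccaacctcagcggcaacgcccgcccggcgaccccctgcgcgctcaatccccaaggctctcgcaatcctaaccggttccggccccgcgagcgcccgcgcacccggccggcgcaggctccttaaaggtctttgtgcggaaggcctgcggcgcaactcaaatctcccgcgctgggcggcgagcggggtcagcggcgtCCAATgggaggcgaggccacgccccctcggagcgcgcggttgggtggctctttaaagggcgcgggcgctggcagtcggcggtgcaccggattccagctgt
Windows were found for 29 of the 33 genes, all but Rrm2b, Dhodh, Pfas and Aldh1l2, and 4 of the 29 have more than 1 window. The letters searched on both strands were CCAAT, the E-box CACGTG, the E2F site TTTNNCGC with C or G at each N, and the ATF4 element TGATGNAA, and no match of one shared bases with a match of another. The 29 genes have 34 windows. CCAAT was in 15 of these 34, from 15 genes, and in 37.4% of all 32851 promoter windows. CACGTG was in 4 of the 34 (Tyms, Paics, Atic and Impdh2) and in 7.15% of all windows. The E2F letters were in 2 of the 34 (Prps2 and Ppat) and in 2.26% of all windows, and the ATF4 letters in 1 (Prps1) and in 3.97%. A match describes letters and is not evidence of a bound factor.

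In pyrimidine synthesis, 4 of 5 members passed as higher in MBs than in GNPs and 3 of 5 as higher than in cerebellum, while Ctps2 passed as lower in both. Cad carries the first 3 activities of the pathway in 1 protein, Dhodh performs the mitochondrial oxidation to orotate and Umps makes UMP. Cad had 5.42, 5.78 and 6.05 in the lowest, median and highest MB, against 4.55 and 4.59 in GNPs and 4.21 in each cerebellum. The difference was 1.17 from GNPs (adjusted p = 0.000201 in limma) and 1.53 from cerebellum (adjusted p = 2.16e-05), and 1 of its 2 averaged probe sets was near the lowest value throughout. Umps stood at 5.83 ± 0.11 (SD, n = 8) in MBs, and rose by 1.59 above GNPs and 1.57 above cerebellum (SE 0.08 each, adjusted p = 3.78e-07 and 1.85e-07). Its averaged probe set 1431652_at stood at the lowest value in every sample, which shrinks the SD and both differences. The others differed by 2.36, 1.82 and 2.17 between MBs and GNPs, and 1434859_at ranged between 8.54 and 9.41 in MBs.

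Dhodh had a different order. It read 6.26, 6.85 and 7.41 in the lowest, median and highest MB, 4.84 and 4.55 in GNPs and 6.03 and 6.49 in cerebellum. All MBs lay above GNPs, by 2.16 on average (SE 0.28, adjusted p = 0.000166 in limma), but they overlapped cerebellum, with a difference of 0.59 (SE 0.28, adjusted p = 0.12). GNPs passed as lower than cerebellum, with a difference of -1.57 (SE 0.35, adjusted p = 0.0072), a call lost without cerebellum WC_2647 (adjusted p = 0.0557). Against cerebellum, MBs passed once tumor MB_630, the lowest MB for Dhodh, was left out (0.67, adjusted p = 0.0482). Leaving out the lowest tumor raises the difference by itself. The second probe set of Dhodh, left out of its mean for its suffix s, passed against cerebellum with 0.91 (adjusted p = 0.0025).

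The 2 CTP synthases moved apart. Ctps, the main enzyme that aminates UTP to CTP, had 10.80, 11.04 and 11.39 in the lowest, median and highest MB, 9.45 and 9.27 in GNPs and 8.47 and 8.70 in cerebellum. The order MB, GNP, cerebellum held without overlap, with differences of 1.70 from GNPs (SE 0.14, adjusted p = 1.11e-05 in limma), 2.47 from cerebellum (SE 0.14, adjusted p = 4.48e-07) and 0.78 between GNPs and cerebellum (SE 0.18, adjusted p = 0.0098). The last call was lost without GNP CGNP_2698 or cerebellum WC_2646 (adjusted p = 0.0657 and 0.0728). Ctps2, encoded on the X chromosome, had 5.03, 5.35 and 5.42 in the lowest, median and highest MB, against 5.91 and 6.004 in GNPs and 5.89 and 5.91 in cerebellum. All MBs lay below all normal samples, with differences of -0.66 from GNPs (SE 0.11, adjusted p = 0.000729) and -0.61 from cerebellum (SE 0.11, adjusted p = 0.000903). The 3 probe sets of Ctps2 did not move together. The one with the highest signal, 1448111_at, was 0.75 higher in MBs than in cerebellum (adjusted p = 0.0015) and differed by -0.38 from GNPs (adjusted p = 0.0628), while 1457075_at differed by -2.27 and -1.17 in these comparisons. The direction of Ctps2 against cerebellum therefore depends on the probe set.

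**Figure D3:**
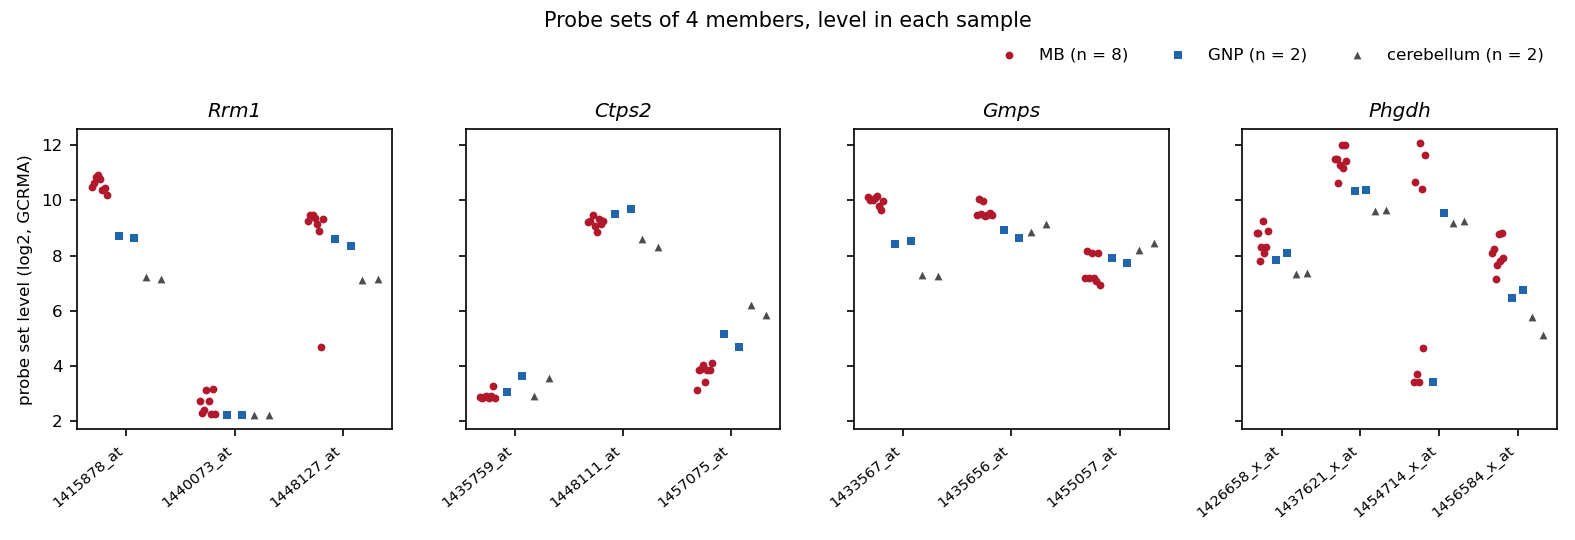
Log2 level of each probe set of Rrm1, Ctps2, Gmps and Phgdh in each sample, with MBs as red circles (n = 8), GNPs as blue squares (n = 2) and cerebellum as grey triangles (n = 2). Tumor MB_706 is alone at 4.67 in a probe set of Rrm1, the probe sets of Ctps2 differ in direction, and 1454714_x_at of Phgdh splits the tumors into 4 between 3.41 and 4.66 and 4 between 10.43 and 12.09.

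In purine synthesis, 9 of 10 measured members passed as higher in MBs than in GNPs and all 10 as higher than in cerebellum. The pathway starts from PRPP, which Prps1 and Prps2 make, and runs over Ppat, Gart, Pfas, Paics, Adsl and Atic to IMP, after which Impdh1 and Gmps lead to GMP. Pfas, which performs the fourth step, had 9.66, 9.81 and 10.59 in the lowest, median and highest MB, 6.42 and 6.16 in GNPs and 7.71 and 7.92 in cerebellum. The groups did not overlap, and GNPs were the lowest of the 3. The difference was 3.73 from GNPs (SE 0.28, adjusted p = 4.84e-06 in limma), 2.20 from cerebellum (SE 0.28, adjusted p = 0.000107) and -1.53 between GNPs and cerebellum (SE 0.35, adjusted p = 0.0089). The last was lost without GNP CGNP_2705 or cerebellum WC_2647 (adjusted p = 0.0565 and 0.0543).

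Prps2, an X-linked PRPP synthetase, had 6.75, 7.40 and 7.83 in the lowest, median and highest MB, 5.11 and 4.98 in GNPs and 5.51 and 5.78 in cerebellum. Its paralog Prps1, also X-linked, had 10.09, 10.39 and 10.80 in MBs in that order, 8.77 and 8.54 in GNPs and 8.91 and 9.04 in cerebellum. Both paralogs lay above all normal samples in every MB. Prps2 differed by 2.33 from GNPs (SE 0.23, adjusted p = 2.69e-05 in limma) and 1.73 from cerebellum (SE 0.23, adjusted p = 0.000134), and Prps1 by 1.77 (SE 0.18, adjusted p = 3.3e-05) and 1.45 (SE 0.18, adjusted p = 8.29e-05).

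Paics, a fused carboxylase and synthetase, stood at 12.52 ± 0.12 (SD, n = 8) in MBs, 11.00 and 11.06 in GNPs and 11.26 and 11.41 in cerebellum. It rose by 1.49 above GNPs and 1.18 above cerebellum (SE 0.09 each, adjusted p = 9.8e-07 and 2.52e-06 in limma). Ppat, the first committed enzyme, rose by 1.10 and 1.17 (adjusted p = 0.000109 and 4.6e-05), with 1 of its 2 averaged probe sets at the lowest value in every sample. The starts of Paics and Ppat lie 276 bases apart on opposite strands of chromosome 5 in the RefSeq annotation of GRCm38.p6. Their windows are shown because the genes are neighbours in the genome and in the pathway. Capitals mark CACGTG and CCAAT in Paics, 203 and 23 bases before its start, and the E2F letters read on the other strand in Ppat, 211 and 158 bases before its start.
Paics (chr5:76951052-76951351, plus strand): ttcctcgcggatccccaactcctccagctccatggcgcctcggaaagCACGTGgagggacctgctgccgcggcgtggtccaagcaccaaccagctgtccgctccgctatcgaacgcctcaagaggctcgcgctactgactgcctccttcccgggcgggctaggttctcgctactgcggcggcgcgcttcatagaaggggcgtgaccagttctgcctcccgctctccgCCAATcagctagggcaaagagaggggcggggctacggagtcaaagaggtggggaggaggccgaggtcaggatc
Ppat (chr5:76951529-76951828, minus strand): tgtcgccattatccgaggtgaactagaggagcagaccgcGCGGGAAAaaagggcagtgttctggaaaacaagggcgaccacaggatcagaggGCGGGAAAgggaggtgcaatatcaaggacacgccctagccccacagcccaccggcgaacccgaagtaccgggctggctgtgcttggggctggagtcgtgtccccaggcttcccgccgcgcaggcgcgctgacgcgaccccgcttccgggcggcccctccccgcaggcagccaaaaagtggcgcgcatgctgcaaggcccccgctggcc
These windows do not overlap.

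Gart, a protein with 3 activities of the pathway, and Atic, which performs the last 2 steps to IMP, rose by 1.39 and 1.37 above GNPs (adjusted p = 0.000323 and 7.97e-05 in limma). Against cerebellum they rose by 1.65 and 2.05 (adjusted p = 6.86e-05 and 3.12e-06). Atic had 7.80, 7.95 and 8.35 in the lowest, median and highest MB, 6.53 and 6.73 in GNPs and 5.87 and 6.04 in cerebellum, and GNPs also passed as higher than cerebellum, by 0.68 (adjusted p = 0.0285), a call lost without any 1 of the 4 normal samples (adjusted p between 0.0544 and 0.153). Adsl, which acts both before IMP and on the way to AMP, was 1.06 higher in MBs than in GNPs (SE 0.32, adjusted p = 0.0248) and 1.10 higher than in cerebellum (SE 0.32, adjusted p = 0.0174). Tumor MB_630 read 7.90 for Adsl, inside the range of the normal samples, whereas the other 7 MBs lay between 8.85 and 9.37. With either sample of a normal group left out, Adsl no longer passed against that group (adjusted p = 0.136 and 0.115 for GNPs, 0.0694 and 0.127 for cerebellum). Without MB_630, the lowest MB for Adsl, the differences were 1.21 and 1.25 (adjusted p = 6.83e-05 and 3.58e-05). Leaving out the outlying tumor raises the differences and narrows the spread by itself.

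Both measured members on the way to GMP had smaller differences from GNPs than the other purine members. Impdh1, the IMP dehydrogenase measured here, had 6.46, 6.92 and 7.23 in the lowest, median and highest MB, 6.70 and 6.65 in GNPs and 5.88 and 5.17 in cerebellum. MBs overlapped GNPs, with a difference of 0.19 (SE 0.22, adjusted p = 0.64 in limma), and both lay above cerebellum, MBs by 1.35 (SE 0.22, adjusted p = 0.000652) and GNPs by 1.15 (SE 0.28, adjusted p = 0.0119). The last was lost without GNP CGNP_2698 or cerebellum WC_2647 (adjusted p = 0.0572 and 0.0956). Gmps, GMP synthetase, had 8.77, 8.92 and 9.41 in MBs, 8.42 and 8.29 in GNPs and 8.11 and 8.29 in cerebellum, and was 0.67 above GNPs (SE 0.17, adjusted p = 0.0124) and 0.82 above cerebellum (SE 0.17, adjusted p = 0.0031). Without either GNP sample the first did not pass (adjusted p = 0.0522 and 0.11). Its probe set 1433567_at was higher in MBs by 1.502 and 2.70, while 1455057_at differed by -0.33 and -0.85 and passed in neither comparison (adjusted p = 0.65 and 0.098).

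In folate one-carbon metabolism, 5 of 6 members passed as higher in MBs than in GNPs and all 6 as higher than in cerebellum. Cytosolic Shmt1 and mitochondrial Shmt2 move the one-carbon unit of serine to folate. Shmt1 had 6.32, 7.73 and 8.42 in the lowest, median and highest MB, 3.52 and 3.50 in GNPs and 4.11 and 4.26 in cerebellum. All tumors lay above all normal samples, by 4.08 on average from GNPs (SE 0.43, adjusted p = 4.46e-05 in limma) and 3.40 from cerebellum (SE 0.43, adjusted p = 0.000101). The lowest MB for Shmt1 was MB_706, where 1422198_a_at read 2.36, against 5.83 to 7.14 in the other MBs. That probe set stood at the lowest value in GNPs, so that the difference from GNPs is understated. Shmt2 had 6.88, 7.86 and 8.87 in MBs in that order, 5.64 and 5.69 in GNPs and 4.29 and 5.81 in cerebellum. It rose by 2.27 above GNPs (SE 0.50, adjusted p = 0.0049) and 2.88 above cerebellum (SE 0.50, adjusted p = 0.000897), and the 2 cerebellum samples differed from each other by 1.52.

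The cytosolic Mthfd1, with 3 activities on folate, had 8.57, 9.06 and 9.43 in the lowest, median and highest MB, 7.81 and 7.78 in GNPs and 8.24 and 8.43 in cerebellum. It rose by 1.28 above GNPs (SE 0.18, adjusted p = 0.000291 in limma) and by 0.74 above cerebellum (SE 0.18, adjusted p = 0.0067). Its mitochondrial relative Mthfd1l, a formate synthetase, had 7.17, 7.78 and 8.44 in MBs, 6.57 and 6.99 in GNPs and 6.15 and 6.82 in cerebellum, with differences of 1.07 (SE 0.31, adjusted p = 0.0224) and 1.36 (SE 0.31, adjusted p = 0.0052). All tumors lay above all normal samples for both. Against cerebellum, neither passed without sample WC_2646 (adjusted p = 0.0777 and 0.0894), and against GNPs, Mthfd1l did not pass without either GNP sample (adjusted p = 0.195 and 0.0584).

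Mthfd2, the mitochondrial dehydrogenase and cyclohydrolase of embryonic and dividing cells, had 8.13, 8.99 and 10.22 in the lowest, median and highest MB, 7.12 and 7.40 in GNPs and 5.90 and 7.74 in cerebellum. Its differences were 1.95 from GNPs (SE 0.67, adjusted p = 0.045 in limma) and 2.39 from cerebellum (SE 0.67, adjusted p = 0.0149). The call against GNPs was lost when either GNP sample or any of 6 of the MBs was left out (adjusted p between 0.0512 and 0.218). Aldh1l2, which oxidises formyl-folate in mitochondria, had 7.61, 9.03 and 10.37 in MBs, 8.54 and 8.24 in GNPs and 6.33 and 7.32 in cerebellum. It overlapped GNPs, with a difference of 0.63 (SE 0.67, adjusted p = 0.60), and lay above cerebellum by 2.19 (SE 0.67, adjusted p = 0.0235). Without cerebellum WC_2646, neither Mthfd2 nor Aldh1l2 passed against cerebellum (1.47 and 1.69, adjusted p = 0.235 and 0.219).

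In serine synthesis, 2 of 3 members passed as higher in MBs than in GNPs and 1 as higher than in cerebellum. Psat1, the transaminase and middle step, had 11.68, 12.30 and 12.79 in the lowest, median and highest MB, 10.03 and 10.22 in GNPs and 9.78 and 10.28 in cerebellum. All MBs lay above all normal samples, by 2.16 on average from GNPs (SE 0.31, adjusted p = 0.000319 in limma) and 2.26 from cerebellum (SE 0.31, adjusted p = 0.000169). Psph, the phosphatase of the last step, had 8.87, 9.63 and 10.39 in MBs, 8.03 and 8.26 in GNPs and 8.92 and 9.56 in cerebellum. It lay above GNPs by 1.41 (SE 0.39, adjusted p = 0.0155), which did not pass without either GNP sample (adjusted p = 0.117 and 0.0692), and overlapped cerebellum, with a difference of 0.32 (SE 0.39, adjusted p = 0.65).

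Phgdh, the first enzyme of the branch, was the most scattered member, at 8.88 ± 1.19 (SD, n = 8) in MBs, 7.02 and 8.69 in GNPs and 7.98 and 7.85 in cerebellum. It passed in neither comparison, with 1.03 against GNPs (SE 0.86, adjusted p = 0.45 in limma) and 0.97 against cerebellum (SE 0.86, adjusted p = 0.47). All 4 of its probe sets carry the suffix x. The scatter came with 1 of them, 1454714_x_at, which read 3.41 to 4.66 in tumors MB_1187, MB_1206, MB_1207 and MB_706 and in GNP CGNP_2698 (3.41), and 9.18 to 12.09 in all other samples. By 1437621_x_at, the one with the highest signal, Phgdh was 1.08 higher in MBs than in GNPs (adjusted p = 0.0218) and 1.81 higher than in cerebellum (adjusted p = 0.000936).

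By branch, the folate and serine members had the highest median SD between tumors. It was 0.62 for the 6 folate members and 0.54 for the 3 serine members, against 0.26 for purine, 0.20 for pyrimidine and 0.43 for dNTP members, and 0.27 for the 8289 genes with a mean above 5 in MBs. Averaged probe sets at or near the lowest value shrink the SD of some dNTP, pyrimidine and purine members, such as Tyms, Umps and Ppat. The SD of Shmt1 includes tumor MB_706, where 1422198_a_at read 2.36. The ranking of the branches therefore depends in part on the probe sets. Tumor MB_1224 was the highest MB for 6 of the 9 folate and serine members (Shmt2, Mthfd1, Mthfd2, Aldh1l2, Phgdh and Psph), while over the 11669 genes that varied by more than 0.3 between MBs it was the highest for 12%. For Phgdh this rank depends on the probe set, since 1437621_x_at and 1456584_x_at read 12.02 and 8.82 in MB_706, against 12.003 and 8.78 in MB_1224. Tumors MB_1206 and MB_630 were each the lowest for 3 of the 9, and over those genes MB_1206 was the lowest for 10.1% and MB_630 for 16.9%. Over all 32 members MB_630 was the lowest MB for 11, and the part of its markers of other cell types, given above, in these values was not tested.

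Tumor MB_1224 also led in target genes of ATF4, a transcription factor of the response to amino acid shortage and cell stress that is known to act on several serine and folate genes. Of 9 listed ATF4 targets outside the members that varied between MBs, tumor MB_1224 was the highest for 8. This list was chosen with earlier results of these data known. A part of ATF4 in the levels of this tumor was not tested. Asns, asparagine synthetase, read 11.42 there and 9.57 to 10.94 in the other MBs. Chac1, which degrades glutathione, read 9.00 there and 5.15 to 8.28 in the others, and Trib3, a pseudokinase, read 6.27 there and 3.36 to 3.78 in the others. Of the 10 targets, 3 passed as lower in MBs than in GNPs and 7 did not pass (limma, median difference -0.33), and against cerebellum 1 passed as higher, 2 as lower and 7 did not pass (median 0.25), where the shares over all genes are those given above. Tumors MB_1224 and MB_630 had the highest Myc levels, 11.47 and 10.99. The other 6 MBs had Myc at 7.34 to 8.94, with MB_1206 at 8.94, and all 8 had Mycn at 7.40 to 9.46, while GNPs had Myc at 6.95 and 7.02 and cerebellum at 3.15 and 3.03.

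The 2 cerebellum samples also differed in some of these genes. Cerebellum WC_2647 was above WC_2646 by 1.84 for Mthfd2, 1.52 for Shmt2, 0.99 for Aldh1l2, 0.67 for Mthfd1l and 0.63 for Psph, and by 2.05 for Chac1, 0.97 for Sesn2 and 0.95 for Asns. Others differed little, with 0.18 for Mthfd1, 0.15 for Shmt1, -0.13 for Phgdh, -0.10 for Ddit3 and -0.0038 for Trib3. A difference of 1 or more was found for 2 of the 9 folate and serine members, 1 of the 10 ATF4 targets and 1.07% of all genes. With 2 samples the difference has no test.

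**Figure D4:**
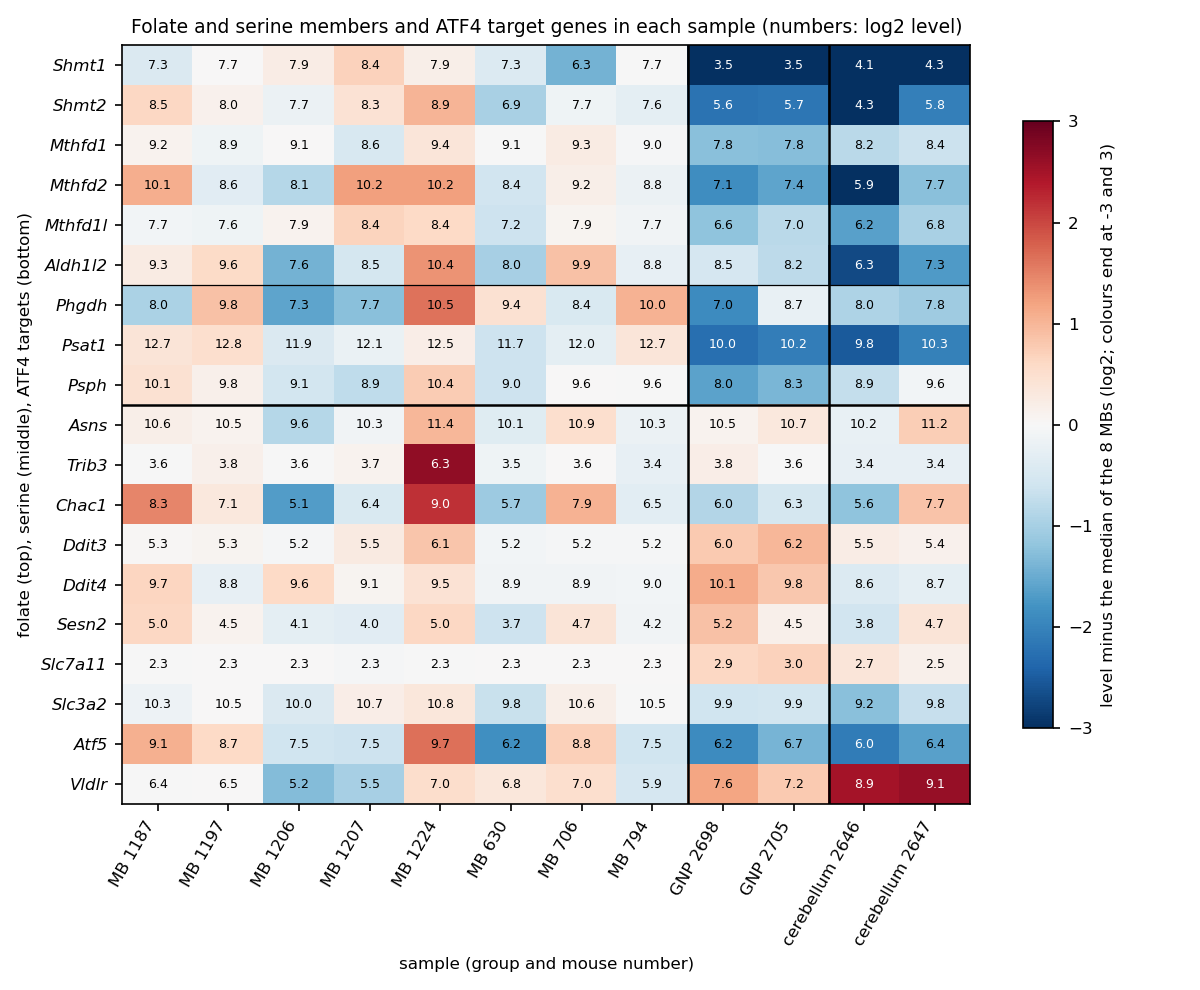
Each row is a gene, with the 6 folate members at the top, the 3 serine members in the middle and 10 ATF4 targets at the bottom, and each column is a sample. Numbers give the log2 level and colours the difference from the median of the 8 MBs, and tumor MB_1224 is the highest MB in 6 of the 9 members and in 8 of the 9 targets that vary.

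The promoters of Mthfd2 and Psat1 are shown. They hold more CCAAT boxes than any other member of these branches with a window, and so are not typical of them. The 3 serine members and 3 of the 5 folate members with a window hold CCAAT, in capitals here on either strand, and none of these 8 holds the ATF4 letters.
Mthfd2 (chr6:83317555-83317854, minus strand): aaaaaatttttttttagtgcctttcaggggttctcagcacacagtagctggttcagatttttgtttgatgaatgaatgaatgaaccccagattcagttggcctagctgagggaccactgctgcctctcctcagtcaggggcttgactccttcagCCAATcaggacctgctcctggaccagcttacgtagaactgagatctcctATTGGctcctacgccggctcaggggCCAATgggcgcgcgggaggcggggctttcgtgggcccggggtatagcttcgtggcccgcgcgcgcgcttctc
Psat1 (chr19:15925010-15925309, minus strand): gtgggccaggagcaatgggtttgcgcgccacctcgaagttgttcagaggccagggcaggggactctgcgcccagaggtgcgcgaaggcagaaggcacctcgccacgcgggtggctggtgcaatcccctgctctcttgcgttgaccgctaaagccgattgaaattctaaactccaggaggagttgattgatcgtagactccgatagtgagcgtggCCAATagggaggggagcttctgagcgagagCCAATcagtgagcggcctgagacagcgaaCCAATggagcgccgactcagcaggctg
Both have 3 boxes, at 96, 47 and 22 bases before the start in Mthfd2 and at 36 and 6 before it and 23 after it in Psat1. The second window of Psat1 is not shown and holds none of the searched letters.

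Other genes of these pathways were far less uniform. The split into members and other genes was made with earlier results of these data known, so this contrast is only descriptive. Of 67 measured genes of salvage, breakdown, transport and the methionine cycle, 21 passed as higher and 9 as lower in MBs than in GNPs, with a median difference of 0.15. Against cerebellum 23 passed as higher and 17 as lower, with a median of 0.12. Between GNPs and cerebellum 9 passed as higher and 14 as lower. The shares over all genes given above apply to these counts too.

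Among 13 genes of dNTP salvage, kinases and breakdown, 4 passed as higher and 2 as lower in MBs than in GNPs, and 7 and 2 against cerebellum. Dctd, the deaminase that turns dCMP into the dUMP used by thymidylate synthase, had 7.27, 8.11 and 8.68 in the lowest, median and highest MB, 2.25 and 2.42 in GNPs and 3.99 and 4.73 in cerebellum. MBs lay above GNPs by at least 5.69 (SE 0.32, adjusted p = 7.79e-07 in limma), since GNPs were near the lowest value, and above cerebellum by 3.66 (SE 0.32, adjusted p = 8.51e-06). Cmpk1, the UMP and CMP kinase, differed by -1.64 between MBs and GNPs (adjusted p = 0.000183), and Nt5m, a mitochondrial deoxynucleotidase, by -1.70 between MBs and cerebellum (adjusted p = 1.82e-06).

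Among 17 genes of purine salvage and interconversion, 4 passed as higher and 3 as lower in MBs than in GNPs, and 4 and 7 against cerebellum. Ada, adenosine deaminase, averaged 6.12 in MBs, 4.31 in GNPs and 2.66 in cerebellum, with differences of 1.81 (adjusted p = 0.0011 in limma) and 3.46 (adjusted p = 1.01e-05). Adssl1, the adenylosuccinate synthetase of muscle, went the other way, with means of 3.34 in MBs, 5.55 in GNPs and 6.95 in cerebellum (-2.21 and -3.61, adjusted p = 0.000101 and 2.12e-06). Among 8 genes of pyrimidine salvage and breakdown, 3 passed as higher and none as lower in MBs than in GNPs, and 2 and 1 against cerebellum. Uckl1, a uridine kinase relative, differed by 1.26 from GNPs (adjusted p = 0.0068) and -1.61 from cerebellum (adjusted p = 0.0012), and Upp1, uridine phosphorylase, was 2.35 above cerebellum (adjusted p = 0.0465).

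Among 14 folate carriers and enzymes, 6 passed as higher and 1 as lower in MBs than in GNPs, and 5 and 2 against cerebellum. Mthfd2l, the relative of Mthfd2 in mitochondria, averaged 8.93 in MBs, stood at 7.23 and 6.76 in GNPs and averaged 5.33 in cerebellum, with differences of 1.93 (adjusted p = 1.08e-05 in limma) and 3.59 (adjusted p = 7.27e-08). Aldh1l1, the cytosolic counterpart of Aldh1l2 and a marker of astrocytes, averaged 3.98 in MBs, 6.38 in GNPs and 5.51 in cerebellum (-2.41 and -1.54, adjusted p = 0.0061 and 0.0466). Astroglial markers averaged 5.64 to 8.46 in MBs, 8.49 to 8.55 in GNPs and 10.08 to 10.15 in cerebellum, and their part in Aldh1l1 was not tested.

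Among 7 genes of glycine cleavage and serine transport, 1 passed as higher and 1 as lower in MBs than in GNPs, and 2 and 1 against cerebellum. Gcsh, the carrier protein of glycine cleavage, was 1.497 above GNPs (adjusted p = 1.08e-06 in limma), and Slc1a4, a serine and alanine carrier, was 1.16 above cerebellum (adjusted p = 0.0241). Srr, serine racemase, which makes the D-serine of the synapse, was lower in MBs, with differences of -0.81 and -0.51 (adjusted p = 6.71e-05 and 0.000957). Among 8 genes of the methionine cycle and transsulfuration, 3 passed as higher and 2 as lower in MBs than in GNPs, and 3 and 4 against cerebellum. Mtap, which salvages methionine and adenine out of methylthioadenosine, averaged 8.54 in MBs, 5.72 in GNPs and 5.05 in cerebellum (2.83 and 3.49, adjusted p = 3.8e-05 and 5.32e-06). Ahcyl2, a relative of adenosylhomocysteinase, differed by -1.27 from GNPs (adjusted p = 9.43e-05), and Cbs, the first enzyme of transsulfuration, averaged 2.27 in MBs, near the lowest value, and 4.47 in cerebellum, so that it fell by 2.20 or more (adjusted p = 6.39e-08).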

How the data were processed

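Expression was measured on Affymetrix mouse arrays in 8 MBs, 2 GNP samples and 2 cerebellum samples, grouped by their titles. GCRMA, run by the authors through affy in R, made the deposited log2 values, which number 1 per probe set and array and are never below 2.20. Array numbers, not read depth, limit the precision. Of 45101 probe sets, 64 controls were left out, and 34945 paired with 1 gene, 932 with several and 9160 with none in the probe table. A gene is the mean log2 of its single-gene probe sets without the suffixes s or x (290 genes had only such probe sets), which left 18193 genes, all of them tested. A mean that includes probe sets at the lowest value understates a difference.

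The 3 groups were fitted together in limma 3.58.1 (lmFit and eBayes in R 4.3.3). Its p-values were two-sided, were adjusted by Benjamini-Hochberg across the 18193 genes, and passed under 0.05. In a simulation, log2 shifts of 1 and 2 were each given to 100 of the 18193 genes. Of these, limma recovered 69% and 91% between MBs and GNPs, 66% and 94% between MBs and cerebellum, and 59% and 85% between GNPs and cerebellum. Far more genes passed in the data than were shifted in the simulation, so these rates need not hold there. Levels (lowest, median and highest of the MBs, and each normal sample) are given, in each branch and comparison, for the members with the highest and lowest difference past the test and for set pairs of paralogs, and those furthest up and down in each list of other genes are named, mostly by group means or differences. Xrcc4, Myc, Mycn and Mki67 were named as background. Members given values outside this rule (Rrm1, Samhd1, Dctpp1, Dut, Cad, Umps, Paics, Ppat, Gart, Adsl, Atic, Mthfd2, Aldh1l2 and Phgdh), the ATF4 targets and the single probe sets were chosen after their values were seen. The members and lists were chosen with earlier results of these data known. Alternatives were other probe set rules, normalizations, spreads, filters, tests and samples. Of 77 other listed genes 67 had a probe set. Promoters and gene positions are from RefSeq GRCm38.p6. Figures used matplotlib 3.10.9.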

Additional observations from a re-analysis of the deposited data

Results flagged for a closer look

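In 4 of the 32 measured members 1 of the 8 MBs lay far from the others, where chance alone puts about 1 in 20 groups past this limit. Rrm1 read 6.10 in tumor MB_706 and 7.17 to 7.80 in the others. Paics read 12.25 in the same tumor and 12.46 to 12.62 in the others, a small gap in log2 units. Samhd1 read 7.22 in tumor MB_1187 and 5.16 to 5.92 in the others. Adsl read 7.90 in tumor MB_630 and 8.85 to 9.37 in the others. Tumor MB_630 also had the highest means of Purkinje cell, mature granule neuron, mesenchymal, endothelial and oligodendrocyte markers among the MBs, whose part in its Adsl value was not tested. Tumor MB_706, which holds 2 of the 4, is also the one with the steep difference between 3′ and 5′ control probe sets, 2.93 against 0.56 to 0.82 in the other MBs, and its part in these values was not tested.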

How the results depend on the processing

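With 1 sample left out at a time, 21 to 27 members were called between MBs and GNPs (20 to 26 higher, 1 lower), 22 to 29 between MBs and cerebellum (21 to 28 higher, 1 lower) and 3 to 10 between GNPs and cerebellum (2 to 6 higher, 0 to 4 lower). The last count was 3 without cerebellum WC_2647 and 4 without GNP CGNP_2698. Over all genes these ranges were 5339 to 6865 (2449 to 3467 higher, 2890 to 3407 lower), 6603 to 7980 (3140 to 4091 higher, 3463 to 3892 lower) and 4112 to 5394 (1950 to 2852 higher, 1882 to 2575 lower). With a log2 difference of at least 1 required, 3752 genes were called between MBs and GNPs (1910 higher, 1842 lower), 4816 between MBs and cerebellum (2424 and 2392) and 3101 between GNPs and cerebellum (1503 and 1598). In the MB comparisons 0 members were then lower, and 3 members were higher in GNPs than in cerebellum. With arrays shifted to 1 median, the genes called numbered 12030 (8784 lower), 13420 (9857 lower) and 9107 (6439 lower), and 4 members were lower in GNPs than in cerebellum. With the probe set of highest mean signal, 0 members were lower in MBs in either comparison, and 12 differed between GNPs and cerebellum (8 higher, 4 lower). The methods' t-test, a per-gene t-test on 2 groups, called 2850 genes between GNPs and cerebellum after adjustment (1464 higher, 1386 lower) and 3 members (3 higher, 0 lower), and 11 members unadjusted (4 lower).

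Some members turned direction. Ctps2 was 0.75 higher in MBs than in cerebellum by its probe set of highest signal, 1448111_at. By 1455057_at Gmps differed by -0.33 from GNPs and -0.85 from cerebellum, and by 1454714_x_at Phgdh differed by -1.71 from cerebellum. Rrm2b, not called, differed from cerebellum by -0.0015 with arrays shifted to 1 median and by -0.0161 (without WC_2646) to 0.4097 (without WC_2647) with 1 sample left out. The cause was not tested in any of these. No paired analysis was possible because the groups share no replicate numbers. With 2 samples in each normal group, and several probe sets near the lowest value, small differences and the spread of normal tissue are poorly measured.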
